A study of Mus musculus with 6 samples.

Results

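Genes of the extracellular matrix were followed in mouse embryos that had developed without sperm: the laminin chains Lama1 and Lamb1, and the stromal matrix genes Sparc, Col1a1, Col6a1 and Mgp. The members were the probes whose platform annotation gives exactly 1 gene symbol and that symbol is one of these 6 genes. They came to 7 probes, 3 for laminins and 4 for stromal matrix genes, of 22132 probes in the deposited table, of which 6249 carry 1 gene symbol. Lamb1 has 2 such probes, called A and B here, and each other gene has 1. A further 7 probes are annotated to one of these genes together with another gene and were not used.

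Mouse eggs arrested in the second meiotic metaphase were activated with cycloheximide, which blocks protein synthesis, or with strontium chloride, which makes the egg release calcium, and both groups also received cytochalasin D, an inhibitor of actin that keeps the polar body inside the egg. The embryos were then kept in KSOM medium for 60 h. Each group held 3 Agilent arrays with 2 colours, with RNA equivalent to 25 embryos amplified in 2 rounds and labelled with Cy3, and with the same commercial universal mouse reference RNA in the other channel, given 1 round of amplification and Cy5. The labels used here give no strain or age of the egg donors. They also do not say that a group had more than 1 culture of embryos, so the p-values rest on a spread between arrays that may be only technical. The series title asks whether the absence of a calcium signal at activation affects later development and gene expression.

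Laminins are trimers of an alpha, a beta and a gamma chain that assemble into the sheets of basement membranes. Lama1 and Lamb1 encode the alpha and beta chains of the form laid down by early embryos, in which the primitive and parietal endoderm are known for strong laminin secretion. Sparc encodes a matricellular protein that binds collagen and is found both in basement membranes and in stroma. Col1a1 encodes a chain of the fibrillar collagen of connective tissue, Col6a1 a chain of the microfibrillar collagen that lies next to cells, and Mgp a protein that inhibits calcification of the matrix. Col1a1, Col6a1 and Mgp are typical of fibroblasts and related mesenchymal cells. Sparc is grouped with the stromal genes in the comparison with laminins, but with basement membrane components in the wider lists below.

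Each level is a log2 ratio, embryo RNA divided by reference RNA. A ratio says how a transcript in embryos compares with the same transcript in the reference, and gives no amount that could be set against another gene. Signal over background was not analysed, so a ratio near 0 does not show that the transcript was detected. No source used here states the direction of the ratios, and the one used is likely from the dyes in the labels and the scanner software's convention of red over green. Of 8 measured genes of the inner cell mass, 8 lay above 0 in this direction, 7 of them past the test, with Tdgf1, a co-receptor of Nodal, held at the upper limit by all 6 arrays. Over all 4742 genes tested, 2752 lay above 0 and 1865 passed as higher. Were the direction the opposite, every sign below would turn. The deposited ratios end at 100-fold, or 6.64 on the log2 scale. Embryo RNA always carried the same dye, and effects of the dye or of the unequal rounds of amplification cannot be told apart from a difference against the reference. RNA came from whole embryos, in which fewer cells of a type and less RNA per cell cannot be told apart.

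Of the 6 genes, 3 were found in the RefSeq promoter table (GRCm38.p6). The 120 bases before the annotated start are printed here 5′ to 3′ for a laminin gene and for the pair of stromal genes that varied least between arrays, to show what lies before the start of genes on each side of the comparison. Capitals mark a match to a GC box.

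Lamb1: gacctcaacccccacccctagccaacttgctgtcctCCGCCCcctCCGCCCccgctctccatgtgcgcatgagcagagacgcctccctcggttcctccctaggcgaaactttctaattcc
Sparc: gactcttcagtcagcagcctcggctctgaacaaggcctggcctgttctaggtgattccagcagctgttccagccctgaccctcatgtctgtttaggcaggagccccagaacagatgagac
Col6a1: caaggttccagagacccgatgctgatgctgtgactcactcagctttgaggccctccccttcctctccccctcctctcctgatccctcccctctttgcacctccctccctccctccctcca

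The Lamb1 stretch lies at chr12:31265173-31265292 on the plus strand, that of Sparc at chr11:55420081-55420200 on the minus strand, and that of Col6a1 at chr10:76726045-76726164 on the minus strand. Both strands were searched for the GC box (GGGCGG), the CCAAT box (CCAAT) and the TATA box (TATAAA). Lamb1 held 2 GC box matches on the other strand, and 26.5% of all 32851 windows of this length held at least 1. The Sparc and Col6a1 windows held none of the 3 motifs, and Lamb1 held neither of the other two. A CCAAT match was present in 21.3% of all windows and a TATAAA match in 6.34%. GC content was 63.3% for Lamb1, 56.7% for Sparc and 61.7% for Col6a1, against a median of 54.2%. The arrays did not measure these sequences, and a match is no evidence of binding.

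Lama1 and 1 of the Lamb1 probes lay slightly above the reference, while the other Lamb1 probe lay far below it. Lama1 was at 0.41, 0.23 and 0.11 on cycloheximide arrays 1 to 3 and at 0.56, 0.61 and 1.30 on strontium arrays 1 to 3. All 6 values were above 0, and array 3 of strontium stood highest. The mean of both groups was 0.54 (SE 0.13, limma adjusted p = 0.0102), which is 1.45-fold over the reference. Lamb1 probe A was at 1.42, 0.90 and 0.51 after cycloheximide and at 0.39, 0.31 and 0.23 after strontium. Its mean was 0.63 (SE 0.13, limma adjusted p = 0.0062), or 1.54-fold, again with 6 of 6 arrays above 0 and with array 1 of cycloheximide highest.

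These small excesses were common on the arrays. In the same fit 40.3% of all 21921 probes tested were called higher in embryos and 26.8% lower, and the median probe was itself at 0.19. The mean of Lama1 was higher than that of 68.1% of probes and that of Lamb1 probe A higher than that of 72.5%. With each array centred on its median, which brought the median of all probes to 0.01 and the calls to 6749 higher and 6895 lower in place of 8832 and 5881, Lama1 was at 0.36 and no longer passed (limma adjusted p = 0.0526). With centring by line of probe numbers neither Lama1 (0.31, adjusted p = 0.0728) nor Lamb1 probe A (0.34, adjusted p = 0.0715) passed.

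Lamb1 probe B gave the opposite picture of the same gene. It was at -5.06, -4.52 and -2.92 on cycloheximide arrays 1 to 3 and at -3.70, -5.30 and -2.48 on strontium arrays 1 to 3. Its mean of -4.00 (SE 0.43, limma adjusted p = 0.000414) put it 16.0-fold below the reference, with 6 of 6 arrays below 0 and only 1.46% of probes lower. Probe A is annotated with 1 transcript accession, which is also among the 10 accessions of probe B, so the annotation itself ties both to a shared transcript. Probe A exceeded probe B on 6 of 6 arrays, by 2.71 to 6.48 and on average by 4.62. Among 1030 genes with 2 or more probes of 1 symbol, the median gap between the highest and the lowest probe was 0.96, and 2.33% had a gap at least as large as that of Lamb1. Calls in opposite directions were found for 21.9% of these genes. These probes give no single level of Lamb1 over the reference, and which transcripts each of them detects was not tested.

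Every stromal matrix gene lay below the reference on 6 of 6 arrays. Sparc was at -5.85, -5.79 and -5.55 after cycloheximide and at -5.62, -5.94 and -5.91 after strontium. It was the lowest and also the steadiest of the 7 probes, since its whole range over the arrays was 0.39, and only 10.2% of probes had a smaller one. The mean of -5.77 (SE 0.09, limma adjusted p = 2.48e-06) corresponds to 54.7-fold below the reference, and 36 of the 21921 probes had a lower mean.

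Col1a1 was at -4.80, -5.09 and -6.64 after cycloheximide and at -3.96, -5.04 and -5.73 after strontium. The value on array 3 of cycloheximide is the lower limit of the ratio, so the true ratio there can lie further down and the mean and SD that include it are too small in size. With it the mean was -5.21 (SE 0.32, limma adjusted p = 4.44e-05), and with that value set to missing -4.93. Values spread over 2.68, more than for 93.6% of probes, so the fibrillar collagen was about as far below the reference as Sparc but much less evenly.

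Col6a1 was at -2.08, -2.52 and -2.23 after cycloheximide and at -2.62, -2.53 and -2.37 after strontium. It was the least reduced of the stromal genes, with a mean of -2.39 (SE 0.10, limma adjusted p = 9.51e-06) or 5.25-fold below the reference, and its arrays lay within 0.55 of each other. Mgp was at -4.16, -3.85 and -2.08 after cycloheximide and at -2.48, -3.35 and -2.23 after strontium. Its mean was -3.03 (SE 0.31, limma adjusted p = 0.000327), or 8.15-fold below, and arrays 1 and 2 of cycloheximide stood lowest. In all, 5 of the 7 probes were called lower than the reference and 2 higher, against 26.8% and 40.3% of all probes. For the 5, 0.164% to 6.29% of all probes had a lower mean, so they lay in the low tail of the arrays, while the laminin probes above 0 lay within its bulk. The genes were chosen with earlier results of these data known, so these counts are no test of them as a set.

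**Figure D1:**
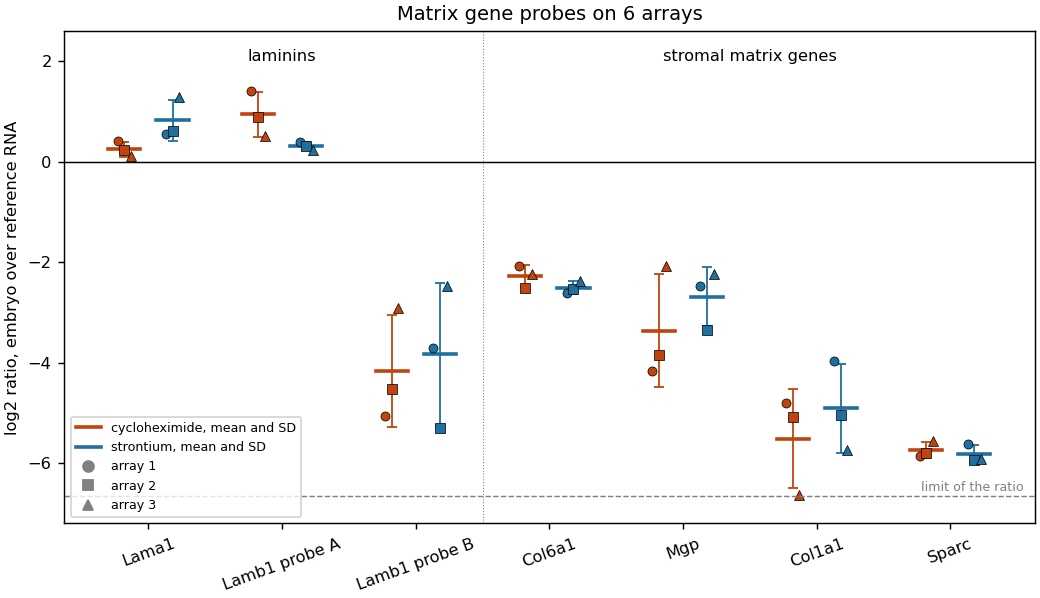
Log2 ratio of embryo over reference RNA (vertical axis) for the 7 probes (horizontal axis), with 1 symbol per array and a bar with error bars for the mean and SD of the 3 arrays of a group. Lama1 and Lamb1 probe A lie between 0.11 and 1.42 on all 6 arrays, the other 5 probes lie at -2.08 or lower, and 1 Col1a1 value sits on the dashed limit of the ratio.

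The laminins were set against the stromal genes as the mean of Lama1 and Lamb1 minus the mean of Sparc, Col1a1, Col6a1 and Mgp on each array, with the probes of Lamb1 averaged. This difference of log2 ratios was 3.52, 3.52 and 3.58 on cycloheximide arrays 1 to 3 and 3.13, 3.27 and 4.14 on strontium arrays 1 to 3. It was thus above 0 on 6 of 6 arrays, with means of 3.54 ± 0.03 and 3.51 ± 0.55 (SD, n = 3 each). The value of 3.58 includes Col1a1 at the limit of the ratio, so the true difference there can be larger and the SD of 0.03 is not exact. With that value set to missing, the array stood at 2.74, over the other 3 stromal genes, and the mean of all arrays at 3.39. No test was applied, because the genes were chosen with earlier results known. The size turned on Lamb1: with probe A alone the mean was 4.68 (range 4.15 to 5.14), and with probe B alone 2.37 (range 1.87 to 3.47). With Sparc left out of the stromal genes it was 2.97. Against the reference the laminin mean itself ran from -0.94 to 0.09 and the stromal mean from -4.31 to -3.67.

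Ordered by mean ratio from high to low, the probes ran Lamb1 probe A, Lama1, Col6a1, Mgp, Lamb1 probe B, Col1a1 and Sparc. The first pair could not be separated, as Lamb1 probe A was the higher on 3 of 6 arrays. A clear step followed, since Lama1 exceeded Col6a1 on 6 of 6 arrays by 2.34 to 3.67 and their ranges did not overlap. Col6a1 exceeded Mgp on 3 of 6 arrays, Lamb1 probe B exceeded Col1a1 on 4 and Col1a1 exceeded Sparc on 5, and the ranges of these neighbours overlapped. Mgp exceeded Lamb1 probe B on 6 of 6 arrays, by 0.25 to 1.95, although the ranges over all arrays overlapped.

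Between the activation groups, none of the 7 probes passed the test. By limma 0 of 21921 probes passed in either direction (0%), with 811 higher and 508 lower after cycloheximide at an unadjusted p under 0.05. Without array 3 of cycloheximide this balance turned, to 1421 higher and 2821 lower, with 0 passing the adjusted threshold. The laminin probes near the reference came closest among the 7. For Lama1 every strontium array lay above every cycloheximide array, with 0.25 ± 0.16 after cycloheximide and 0.82 ± 0.41 after strontium (SD, n = 3). The difference of cycloheximide minus strontium was -0.57 (SE 0.25, 95% interval -1.19 to 0.04, limma adjusted p = 0.836). Negative differences were also found for 6 of 6 measured genes of a list of primitive and parietal endoderm markers, which includes Lama1, with a median of -0.35 and 0 passing the test. They were also found for 3 of 3 measured trophectoderm markers (median -0.49) and for 2592 of all 4742 genes (median -0.03). Lamb1 probe A lay the other way, with every cycloheximide array above every strontium array, at 0.94 ± 0.45 and 0.31 ± 0.08, a difference of 0.63 (SE 0.26, 95% interval -0.01 to 1.27, limma adjusted p = 0.823). Groups without overlap were seen for 2 of the 7 probes and for 11.8% of all probes. Lamb1 probe B, with a difference of -0.34 (95% interval -2.43 to 1.75), had the sign opposite to probe A, and its groups overlapped. Its difference turned to 0.11 without array 1 of cycloheximide and to 0.33 without array 3 of strontium.

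Set against the reference within each group, Lama1 passed after strontium (limma adjusted p = 0.00976) and missed after cycloheximide (adjusted p = 0.289). Lamb1 probe A passed after cycloheximide (limma adjusted p = 0.0078) and missed after strontium (adjusted p = 0.195). The test of the difference itself, given above, passed for neither probe.

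The stromal genes gave differences with wide intervals, except for the pair of steady probes. For Sparc the cycloheximide mean of -5.73 ± 0.16 and the strontium mean of -5.82 ± 0.18 differed by 0.09 (95% interval -0.36 to 0.55). For Col6a1 the means of -2.28 ± 0.22 and -2.51 ± 0.13 differed by 0.23 (95% interval -0.24 to 0.70). Both signs turned when the arrays were scaled to the same spread, to -0.86 for Sparc and -0.15 for Col6a1. Mgp, at -3.36 ± 1.12 and -2.69 ± 0.59, differed by -0.68 (95% interval -2.16 to 0.81). Col1a1, at -5.51 ± 0.99 and -4.91 ± 0.89, differed by -0.60 (95% interval -2.16 to 0.96), and by -0.03 with its limited value set to missing or without array 3 of cycloheximide. The limma adjusted p was 0.931 for Sparc, 0.866 for Col6a1, 0.866 for Mgp, 0.873 for Col1a1 and 0.945 for Lamb1 probe B. A p that misses the threshold does not show that the groups are alike, and for Mgp, Col1a1 and Lamb1 probe B the intervals still include differences beyond 2 on the log2 scale.

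**Figure D2:**
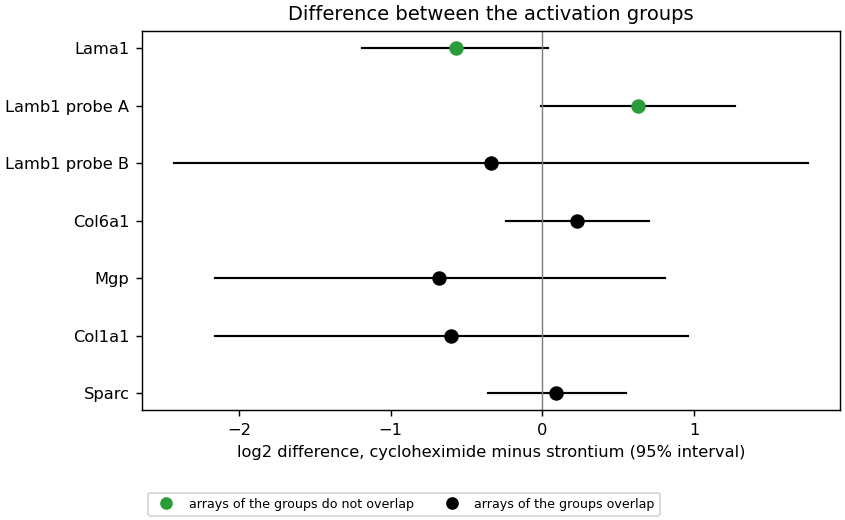
Difference in log2 ratio, cycloheximide minus strontium (horizontal axis), for the 7 probes, where points are the limma estimates and lines their 95% intervals. Each interval includes 0, and the groups do not overlap for Lama1 (-0.57) and Lamb1 probe A (0.63).

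For Lamb1 probe B, Mgp, Col1a1 and Sparc the SD within at least 1 group was larger than the difference between the groups. Lamb1 probe B and Mgp were highest on the arrays numbered 3 of both groups, at 1.08 and 1.52 above the mean of the probe for Lamb1 probe B and at 0.94 and 0.80 above it for Mgp. Col1a1 went the other way there, at -1.43 and -0.52 from its mean. These arrays had the widest distributions of all ratios, with interquartile ranges of 1.60 and 1.59 against 1.11 to 1.41 on the other 4, and they correlated at 0.909 across probes, which are not independent. The other pairs of arrays ran from 0.762 to 0.953, and cycloheximide arrays 1 and 2 were the closest. Of the 1870 probes with a mean under -2, 30.4% were highest on these 2 arrays and 11.0% lowest, against 22.6% and 19.1% of all probes tested, counts made after the members' values were seen. Sparc and Col6a1 stayed within 0.31 of their means on every array. What part the arrays played in the levels of the single genes was not tested.

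**Figure D3:**
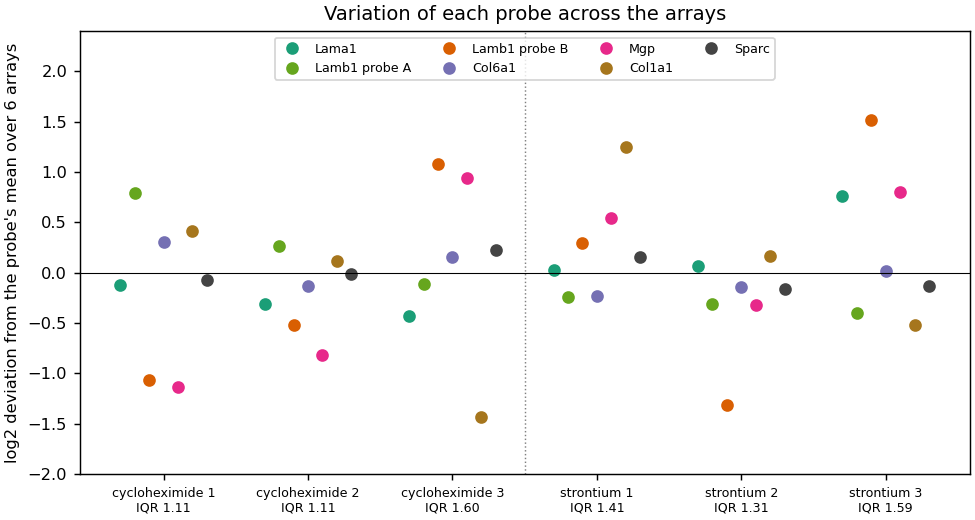
Deviation of each probe from its own mean over the 6 arrays, in log2 units (vertical axis), for each array (horizontal axis, with the interquartile range of all its ratios, IQR). Lamb1 probe B and Mgp stand 0.80 to 1.52 above their means on the arrays numbered 3 of both groups, whereas Col6a1 and Sparc stay within 0.31 of theirs.

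The wider matrix was read from 5 lists that include the members, with the probes of a gene averaged. Of 30 listed basement membrane components 16 were measured, and 12 of them were called lower than the reference and 3 higher. The 12 include Sparc and also Lamb1, at -1.69 as the average of its discordant probes. They also include Pxdn, with probes at -2.05 and 0.30, and Agrn, with probes at -1.31 and -0.01. Over all 4742 genes, 26.3% were called lower and 39.3% higher. The list median was -1.43 against 0.16 for all genes. Called lower were Lamc1 (-1.73), the gamma chain that joins Lama1 and Lamb1 in a trimer, the basement membrane collagen chains Col4a1 (-1.96) and Col4a2 (-2.57), the linker proteins Nid1 (-1.42) and Nid2 (-1.45), and Hspg2 (-2.68), the proteoglycan perlecan. The second lowest of the list, after Sparc, was Col18a1 (-4.78), a basement membrane collagen whose arrays ran from -6.17 to -2.82. The 3 called higher were Lama1, Lama4 (0.77), another laminin alpha chain, and Smoc1 (0.93), a matricellular protein related to Sparc. Lama5 (-0.56), the remaining alpha chain measured, was called lower. Pxdn, Agrn, Lamc1, Col4a1, Col4a2, Nid1 and Lama5 here, and Fn1 and Itga6 below, were named after their values were seen.

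Of 33 listed stromal matrix genes 8 were measured, and 6 were called lower and 0 higher, with a median of -2.43. Besides Col1a1, Col6a1 and Mgp these were Col5a2 (-2.76), a chain of a fibrillar collagen, Prelp (-0.86), a leucine-rich proteoglycan, and Fn1 (-2.47), which encodes fibronectin. Fn1 is another gene with discordant probes, at -5.25 and 0.31. Col6a2, a partner chain of Col6a1, was at -0.02 (limma adjusted p = 0.836), and its 6 arrays ran from -0.30 to 0.15. Mfap5, a microfibril component, ran from -1.48 to 2.01 and was not called.

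Of 11 measured genes of matrix receptors 3 were called higher and 4 lower, with a median of 0.03. Over all 4742 genes 39.3% were called higher and 26.3% lower. These shares also stand beside the counts for collagen maturation and for proteases and inhibitors that follow. The syndecan Sdc1 (1.03), the fibronectin receptor chain Itga5 (0.95) and the laminin receptor chain Itga3 (0.26) were higher. The 3 probes of Itga5 ran from -0.15 to 1.54, and the 3 probes of Itga3 from -0.38 to 0.83. Itgb1 (-3.07), the beta chain shared by most laminin and collagen integrins, Itga6 (-0.96), the alpha chain of a laminin receptor, Itga11 (-1.23), which pairs with Itgb1 to bind collagen, and Rpsa (-2.87) were lower. Rpsa encodes a ribosomal protein also described as a laminin receptor, and its 5 probes ran from -5.22 to 0.63. Itgb5 (0.45) was not called. Of 5 measured genes of collagen maturation, the lysyl hydroxylases Plod1 (0.84) and Plod2 (0.32) and the procollagen protease Bmp1 (0.58) were called higher, and the collagen chaperone Serpinh1 (-2.69) and the prolyl isomerase Ppib (-1.26) lower. Of 8 measured proteases and inhibitors, Mmp19 (0.51) was called higher and Mmp9 (-0.56) lower, both matrix metalloproteases, and the list median was 0.05. The lysosomal protease Ctsb (0.58) and the inhibitors Timp2 (-0.26) and Timp3 (-0.27) were not called.

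No gene of these lists passed between the groups, as 0 of 4742 genes did (0%), with 315 at an unadjusted p under 0.05. The list medians of cycloheximide minus strontium were -0.13 for basement membrane components, -0.31 for stromal matrix, -0.03 for receptors, -0.22 for collagen maturation and 0.05 for proteases and inhibitors, against -0.03 for all genes. The stromal median was not steady. It was -0.03 with values at the limit missing, 0.02 without array 1 of cycloheximide and -0.66 with the arrays scaled to the same spread. That of collagen maturation ran from -0.44 to -0.04 with 1 array left out. The smallest p of the basement membrane list belonged to Nid2, where the cycloheximide mean of -1.07 ± 0.13 exceeded the strontium mean of -1.83 ± 0.21 on non-overlapping arrays by 0.76 (SE 0.18, limma adjusted p = 0.613). Bmp1 (difference -0.44, limma adjusted p = 0.763), Sdc1 (-0.61, adjusted p = 0.821) and Mmp9 (-0.50, adjusted p = 0.732) had negative differences. Those of Mfap5 (-1.27), Itga3 (-0.22) and Plod2 (0.18) also did not pass.

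**Figure D4:**
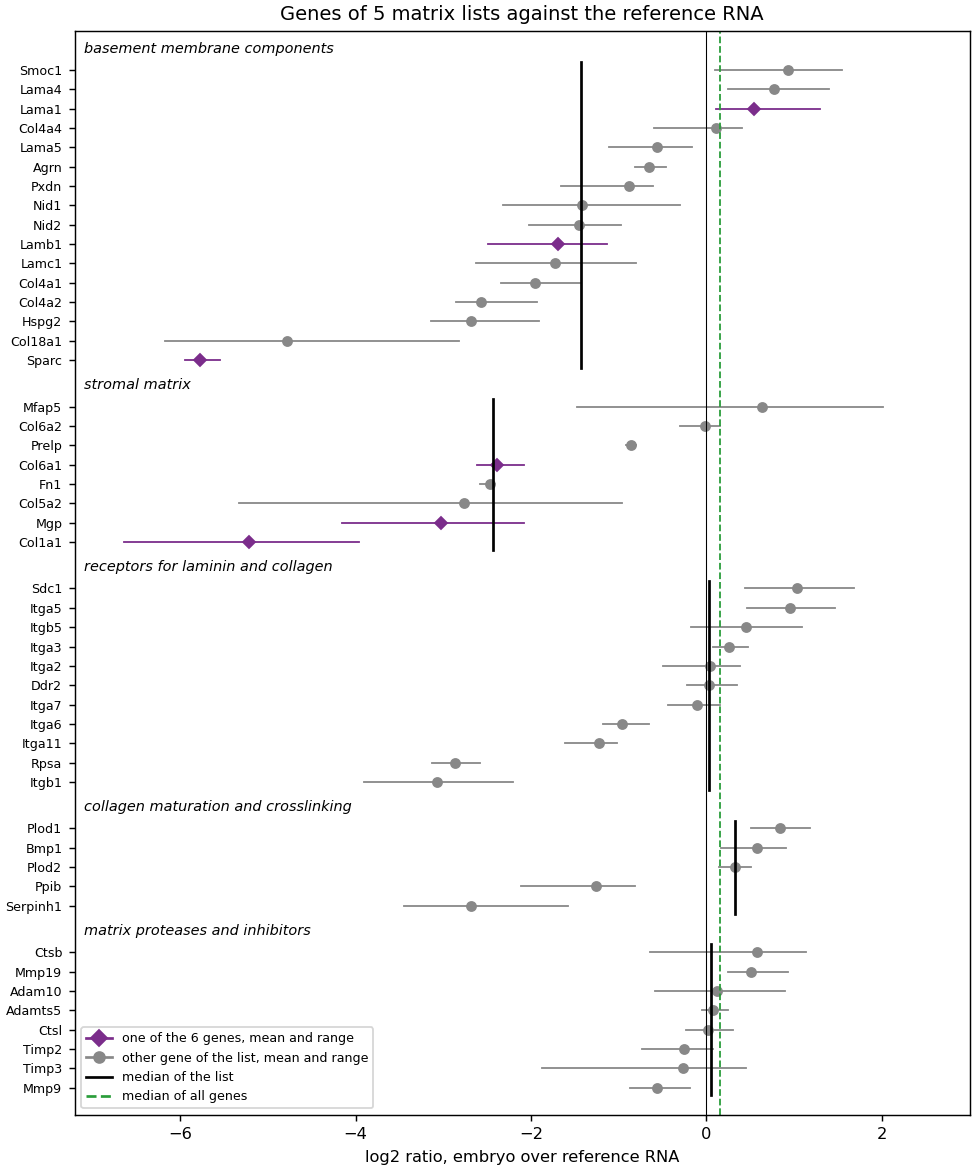
Log2 ratio of embryo over reference RNA (horizontal axis) for the measured genes of 5 matrix lists (vertical axis), as mean and range over 6 arrays, with the list medians as black lines and the median of all genes dashed. Basement membrane (median -1.43) and stromal genes (median -2.43) lie mostly below 0, with Lama1, Lama4 and Smoc1 to the right, while the medians of the other 3 lists are 0.03, 0.32 and 0.05.

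Marker genes of several cell types were read in the same way. Listing a cell type does not mean that embryos after 60 h of culture hold it. Over all 4742 genes 39.3% were called higher and 26.3% lower, and each list below had few measured genes. Which cell types were present was not tested. Of the primitive and parietal endoderm list, 6 of 12 genes were measured, with 3 called higher, namely Gata4 (0.92) and Sox17 (1.00), transcription factors of the endoderm, and Lama1 itself, and with Col4a1 and Col4a2 called lower. The mean over the list, with Lama1 in it, ran from -0.73 to -0.38 after cycloheximide and from -0.21 to -0.07 after strontium. The mean over the measured trophectoderm markers did not overlap either, at -0.10 to 0.26 after cycloheximide and 0.45 to 0.83 after strontium. That of the stromal matrix list went the same way without overlap, at -2.36 to -2.11 after cycloheximide and -2.06 to -1.58 after strontium. Among single probes, 11.8% of all had groups without overlap. None of these list means was tested. Of 14 listed fibroblast markers 3 were measured, with S100a4 (0.49) called higher and the mesenchymal transcription factors Twist1 (-1.78) and Prrx1 (-0.47) lower, and the list mean ran from -0.77 to -0.54 after cycloheximide and from -0.67 to -0.43 after strontium. Of 11 cumulus and granulosa markers 1 was measured and it was not called. Trophectoderm markers had 3 of 11 genes measured, with the transcription factor Tfap2a (0.87) higher, and oocyte markers 2 of 12, with the zona pellucida gene Zp2 (1.73) higher. Blood markers had 3 of 9 genes measured, with Ptprc (-2.64) lower and S100a8 (0.57) higher. Their part in the levels of the matrix genes was not tested.

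The genes nearest to each member were sought among 4483 or 4484 others by the root mean square difference of the log2 ratios over the 6 arrays, which weighs the level above all. Nearest to Lama1 were Clptm1 (0.18), Rrbp1 (0.20) and Foxc2 (0.21). Nearest to Sparc was Stra6 (0.44), a retinol transporter, followed at a distance by Ssbp1 (0.85) and Mars2 (0.86). Col1a1 was nearest to Mars2 (0.67), Ssbp1 (0.83) and Rit1 (0.91). Col6a1 had closer neighbours in Dnmt1 (0.12), Nup88 (0.16) and Kars (0.19). Mgp was nearest to Cthrc1 (0.22), a secreted protein of collagen-rich tissue, Slc25a24 (0.23) and Gpnmb (0.28). For Lamb1, whose average of discordant probes was -1.69, the nearest were Stat3 (0.25), Mcoln2 (0.26) and Trappc9 (0.27), at a level that neither of its probes had.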

How the data were processed

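The authors deposited 1 log10 ratio per probe for each of 6 arrays. The submitters' processing notes name Agilent Feature Extraction, with its version, background and dye settings not given in the sources used here. From each deposited log10 value, log2 of embryo over reference was computed by a change of sign and a factor of 3.32. The fit left out 211 probes with only values of exactly 0, and kept the other values of exactly 0. No member was at exactly 0. Names came from the platform annotation: 6249 probes had 1 gene, 9389 several and 6494 none listed. All 6 members matched the RefSeq table (GRCm38.p6) by gene ID.

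Both comparisons, between the groups and against the reference, came from 1 limma 3.58.1 fit (R 4.3.3) of 21921 probes, and from a like fit of 4742 genes, with Benjamini-Hochberg adjustment over all of them and a threshold of 0.05. The fit was also run on simulated data with independent arrays. That run does not give the error rate for the real arrays. Named were every member probe and, of each matrix list, the 3 genes with the highest and the 3 with the lowest level. The 2 genes of each matrix list with the smallest p between groups were also named. Of each marker list, genes at the limit or called were named, except that of the inner cell mass list only Tdgf1 was. For each member the 3 nearest genes with no value at 0 or the limit were named. Tables and plots used Python 3.11.15, pandas 2.3.3, NumPy 2.4.6 and matplotlib 3.10.9. The members and lists were chosen with earlier results of these data known. Signal over background was not analysed here, and precision is limited by the small number of arrays. Alternatives changed the handling of 0 and limited values, the centring and scaling, the arrays included, weights and the replicate block.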

Additional observations from a re-analysis of the deposited data

Results flagged for a closer look

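Adam10, a membrane protease of the list of matrix proteases, lay above the reference on all 3 cycloheximide arrays (0.79 ± 0.09, SD) and below it on all 3 strontium arrays (-0.55 ± 0.04), a difference of 1.34. The difference did not pass the test (limma adjusted p = 0.400 over all genes). None of the 7 member probes lay on opposite sides of 0 in the groups.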

How the results depend on the processing

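With the direction turned, every level against the reference changes sign by construction: Lama1 to -0.54, Lamb1 probe A to -0.63, Lamb1 probe B to 4.00, Sparc to 5.77, Col1a1 to 5.21, Col6a1 to 2.39, Mgp to 3.03, and laminins minus stromal genes to -3.53. That last value was 3.53 as reported, 3.40 to 3.61 with 1 array left out, 3.16 with each probe counted once, 3.39 with values at the limit missing, 2.97 without Sparc, 4.68 and 2.37 with Lamb1 probe A or B alone, and 4.34 with class medians over probes. The choices on Lamb1 probes and medians were made after seeing the data. By limma the number of probes differing between groups was 0 as reported (1319 at an unadjusted p under 0.05), 0 with 1 array left out (748 to 1393, but 4242 without array 3 of cycloheximide, where the balance turned to 1421 higher and 2821 lower), and 359 with array weights (224 higher, 135 lower, and 2864 higher and 4368 lower at an unadjusted p under 0.05). The weights' estimate stopped before it converged and gave array 2 of cycloheximide a weight of 22.6, and the cause was not tested. Between groups, 94 of 98 alternative values of the members kept their sign before rounding and stayed without a call, although Sparc was at 0.00 without array 3 of cycloheximide and with array weights, which shows no direction. The other 4 were Lamb1 probe B without array 1 of cycloheximide (0.11) or array 3 of strontium (0.33), whose range with 1 array left out was -1.08 to 0.33, and Sparc (-0.86) and Col6a1 (-0.15) with the arrays scaled. The lowest limma adjusted p of a member was 0.203, for Lamb1 probe A without array 3 of cycloheximide, or 0.0773 with weights. The replicate block gave 0 calls by limma, with 2086 at an unadjusted p under 0.05. Arrays with the same number had deviations from their group means that correlated at 0.056, 0.379 and 0.501, and those with different numbers at -0.501 to 0.457. Array 1 of cycloheximide was closer to array 2 of strontium (0.457) than to array 1 (0.056), so the numbers were not taken as pairs. Against the reference, 5 of 112 alternative values lost their call, all of Lama1 or Lamb1 probe A.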
